A study of Homo sapiens with 9 samples.

Results

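The comparison described here is of 3 arrays of H9-TCF7L1 cells kept 48 h in PS differentiation medium with 3 arrays of untreated H9-TCF7L1 cells, 6 of the 9 arrays of the series. The arrays were chosen by their labels alone, and all 18417 genes represented by a probe set with a single symbol were compared. H9 is a long-established line of human embryonic stem cells. Every culture of the study, the untreated cells included, carried a TCF7L1 transgene, and the cells of both groups described here received no doxycycline. Untreated cells were in mTeSR1, a medium that maintains pluripotency. The remaining 3 arrays, from cells given 1 ug/ml doxycycline during 48 h in PS medium, were used only in an alternative fit. The labels do not say whether the replicates were separate cultures, nor whether the line is a single clone, so the p-values reflect only how these arrays vary, which may be technical variation. The stated purpose of the study was to find putative targets of TCF7L1 by over-expression. Setting PS medium against the untreated state gives its baseline for differentiation. The groups differed in medium as well as in differentiation, so effects of medium composition cannot be told apart from those of differentiation.

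In the embryo, epiblast cells enter the primitive streak under Wnt, Nodal and BMP signals, lose their epithelial contacts and move inward to form mesoderm and endoderm. Such cells exchange much of their surface equipment, namely matrix, adhesion molecules and guidance receptors, and they begin to read chemokine, apelin and growth factor cues that steer migrating mesendoderm. Human embryonic stem cells in culture resemble the epiblast, and media that activate those signals are used to imitate the passage through the streak.

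The labels were checked against defining markers. The summed intensity of 4 streak markers (TBXT, MIXL1, EOMES and GSC) was 764 to 865 on the untreated arrays and 68045 to 76798 on the PS arrays, and all 4 passed the test as higher. For 8 measured markers of undifferentiated cells the sums were 36479 to 38184 and 24656 to 27732, with 6 lower and SALL4 and L1TD1 not called. The 5 amnion and trophoblast markers summed to 1103 to 1155 and to 9664 to 12325: GATA3 and TFAP2A rose, KRT7 fell, and VTCN1 and CGA were not called, with CGA at a mean of 33.8 and 38.3. Sums for 6 fibroblast markers were 1866 to 1955 and 1961 to 2079, with COL1A2 higher (1.57-fold, adjusted p = 0.000137), COL1A1 lower (1.6-fold, 0.000498) and the other 4 not called, DCN at means of 25.1 and 25.3. Those for 3 neural markers were 859 to 1019 and 782 to 912, with MAP2 lower at means of 134 and 15.1. The 5 endothelial and blood markers gave 1255 to 1451 and 1142 to 1239, with TEK lower (1.81-fold, 0.0243, a call lost without untreated replicate 1 or 2 or PS replicate 1 or 3) and the other 4 not called, PTPRC at 23.9 and 21.4. The part of the amnion and trophoblast genes in the results was not tested. In a bulk sample, fewer cells of a type and less RNA per cell cannot be told apart.

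Values are deposited probe set intensities on a linear scale. Differences are PS minus untreated on the log2(intensity + 16) scale after quantile normalization, with the standard error (SE) of the limma fit, and a fold on that scale understates the change of dim genes. A gene was called at a Benjamini-Hochberg adjusted p under 0.05 over 18417 genes. By that rule 5446 genes (29.6%) were called, of which 2583 (14.0% of those tested) were higher and 2863 (15.5%) lower in PS medium. A change of at least 2-fold was called for 1036 genes (5.63%), 555 of them higher (3.01%) and 481 lower (2.61%). The 3 and 3 arrays did not overlap for 7828 genes (42.5%), and the median difference over all genes was -0.0056. A gene family is described below by these counts and by its median, to be read against the same values for all genes. Array medians ran from 203.62 to 216.48, the correlation of log2 values over probe sets was 0.938 to 0.954 between the groups, and the lowest within a group was 0.989.

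TCF7L1, the repressor carried as a transgene, was measured first. It read 3718, 3878 and 3572 on the untreated arrays and 1275, 1542 and 1611 in PS medium. All PS arrays lay below all untreated arrays, by 2.56-fold (log2 difference -1.36 ± 0.08, adjusted p = 6.39e-06); with the doxycycline arrays in the fit the adjusted p was 0.0502. The probe set cannot separate the endogenous gene from the transgene.

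**Figure D1:**
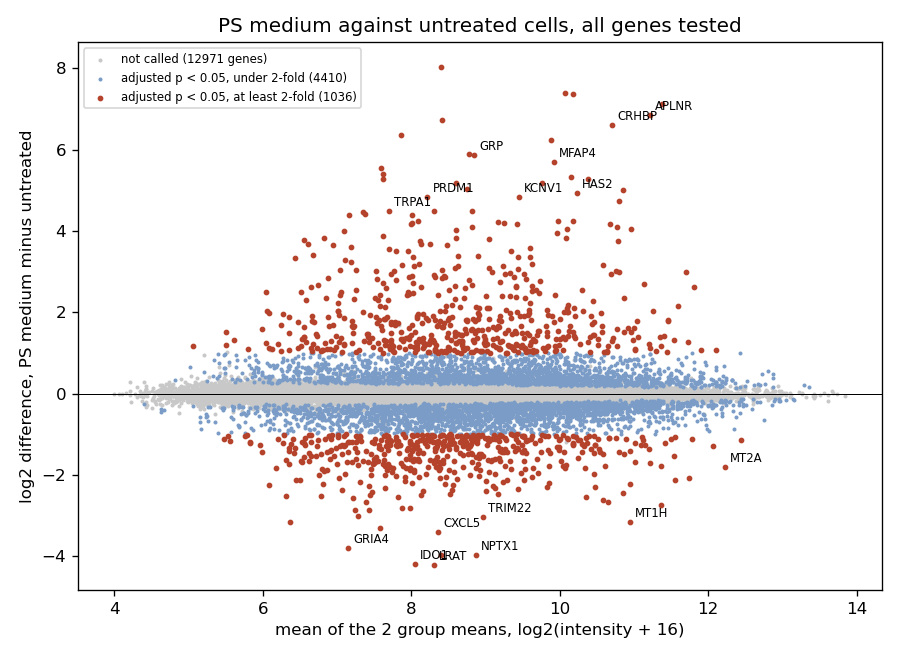
Log2 difference (PS minus untreated, vertical axis) against the mean log2 intensity (horizontal axis) of 18417 genes, in grey where not called, blue where called under 2-fold and red where called at 2-fold or more, with some genes labelled. The points reach further up, to GATA6 at 8.03, than down, to LRAT at -4.22.

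Outside the streak and endoderm regulators, the largest rises were in genes of secreted proteins, surface proteins and other developmental regulators. CRHBP, a secreted protein that binds corticotropin-releasing hormone, read 136, 155 and 176 in untreated cells and 18422, 14229.7 and 20435 in PS medium. It rose 97.8-fold (log2 difference 6.61 ± 0.12, adjusted p = 8.76e-09), with every PS array above every untreated array. GRP, which encodes the precursor of gastrin-releasing peptide, went from 45.6, 38.4 and 51.4 to 2187, 4240.3 and 4663, or 58.6-fold (log2 difference 5.87 ± 0.25, adjusted p = 6.90e-07). CD48, a surface protein best known from lymphocytes, went from 10.5, 11.1 and 16.5 to 1243, 953 and 1955, or 46.7-fold (log2 difference 5.55 ± 0.22, adjusted p = 5.47e-07); the blood marker PTPRC was at a mean of 21.4. Among regulators, HAND1, a factor of heart and extraembryonic mesoderm, rose 106-fold (adjusted p = 1.59e-06), the homeobox gene LHX1 rose 59.6-fold (adjusted p = 7.36e-08), and the T-box genes TBX3 and TBX20 rose 82.2-fold (4.21e-08) and 40.5-fold (2.96e-06). HAND1, TBX3 and CD48 were near the offset of 16 in untreated cells, and their log2 differences moved from 6.73, 6.36 and 5.55 to 5.44, 4.87 and 4.17 with an offset of 64. LIX1, also near the offset in untreated cells (13.8, 13.7 and 16.3), rose 42.1-fold (log2 difference 5.40 ± 0.18, adjusted p = 2.02e-07).

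The falls were smaller than the rises at the extremes. Among the probe sets that stood for genes, the steepest were in LRAT (18.6-fold, adjusted p = 5.41e-07), IDO1 (18.2-fold, 1.38e-06) and NPTX1 (15.7-fold, 2.51e-07). RIPOR2 (15.6-fold, 3.61e-08), GRIA4 (13.9-fold, 4.21e-08) and CXCL5 (10.6-fold, 6.45e-07) followed. In the limma fit of all probe sets, a dimmer probe set of SORBS2 fell further (log2 difference -4.71, adjusted p = 8.30e-08). The brighter probe set, which stood for SORBS2, had a log2 difference of -0.10 (adjusted p = 0.545). CYP2B6, a drug-metabolizing cytochrome P450 that shares near-identical sequence with CYP2B7P, read 556, 724 and 489 and then 54.9, 40.7 and 39.5, a fall of 9.8-fold (log2 difference -3.29 ± 0.15, adjusted p = 9.89e-07). TRIM22, an interferon-induced ubiquitin ligase, read 1311, 1429 and 1448 and then 163, 244 and 96.5, a fall of 8.12-fold (log2 difference -3.02 ± 0.25, adjusted p = 3.08e-05). Neither gene's groups overlapped. FEZF1, a forebrain zinc finger factor, fell 8.06-fold (log2 difference -3.01 ± 0.15, adjusted p = 1.95e-06). The LIM-only factor LMO3 fell 8.9-fold (adjusted p = 1.86e-06), though its difference of -3.15 became -1.96 with an offset of 64. ACOXL, related to peroxisomal acyl-CoA oxidases, fell 7-fold (2.51e-07) and the tetraspanin-like TM4SF18 7.27-fold (6.05e-05).

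**Figure D2:**
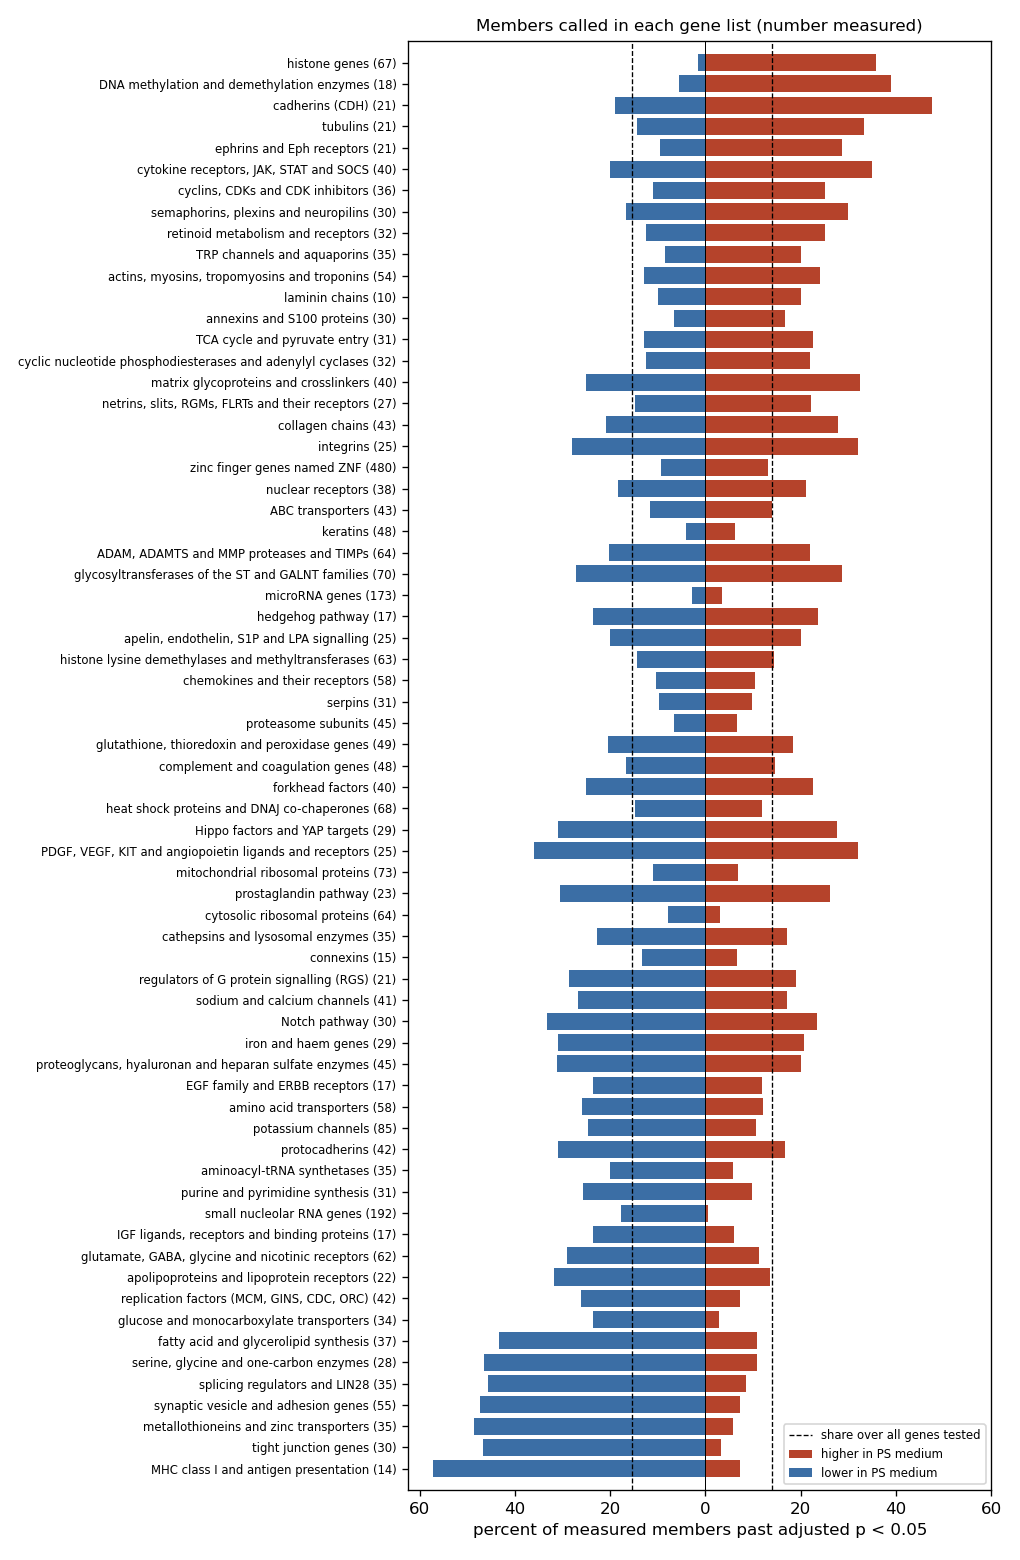
Percentage of the measured members of each gene family called higher (right) and lower (left) in PS medium, with dashed lines at the shares over all genes (14.0% and 15.5%). The family of metallothioneins and zinc transporters, synaptic genes and tight junction genes lie mostly on the lower side, and histone genes on the higher side.

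Among receptors for secreted cues, several changed in the opposite direction to their ligand. APLNR, the apelin receptor of migrating mesendoderm, reached 33414, 38559.6 and 39251 in PS medium against 199.7, 201 and 227 in untreated cells. With values as deposited it rose by 7.36 on the log2 scale (limma adjusted p = 8e-11). Quantile normalization gave APLNR the same value on all 3 PS arrays, so the difference of 6.84 in that fit has an error without the spread of the PS arrays. Its ligand gene APLN read 201, 239 and 262 and then 203, 113 and 84.2, 1.71-fold (log2 difference -0.77 ± 0.24, adjusted p = 0.0396) lower, with overlapping arrays; this call was lost (adjusted p from 0.0664 to 0.122) without any 1 untreated array and without PS replicate 2 or 3. Of the 25 measured genes of apelin, endothelin, sphingosine and lysophosphatidic acid (LPA) signalling, 5 rose and 5 fell. The endothelin receptor EDNRB fell 2.99-fold (log2 difference -1.58 ± 0.18, adjusted p = 0.000192) while the ligand EDN1 rose 1.87-fold (adjusted p = 0.0124). Among LPA receptors, LPAR6 rose 3.34-fold (0.000181) and LPAR3 fell 2.74-fold (8.69e-06), and PLPP3, a phosphatase that degrades LPA, fell 2.72-fold (4.75e-06).

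The chemokine receptors of mesendoderm rose and their ligand fell. CXCR4 went from 77.3, 95.1 and 97.8 to 346, 608 and 902, and ACKR3, the scavenging receptor for the same ligand, from 51.8, 38.1 and 35.4 to 146, 319 and 521. The PS arrays were widely spread for both, and the lowest PS array still exceeded every untreated array. CXCR4 rose 5.63-fold (log2 difference 2.49 ± 0.28, adjusted p = 0.000191) and ACKR3 5.38-fold (log2 difference 2.43 ± 0.36, adjusted p = 0.000953). The shared ligand CXCL12 read 1203, 1184 and 1246 and then 599, 579 and 791, a fall of 1.88-fold (log2 difference -0.91 ± 0.11, adjusted p = 0.000288). Over the 58 chemokine genes 6 rose and 6 fell; the neutrophil attractants CXCL5 and CXCL6 fell 10.6-fold (6.45e-07) and 3.35-fold (6.40e-06), and the epithelial chemokine CXCL14 rose 3.12-fold (0.0013).

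Subunits of the receptors for the interleukin-6 family of cytokines rose together. CNTFR, the ligand-binding subunit for ciliary neurotrophic factor, read 166, 157 and 182 and then 1390.3, 1566 and 1691. The shared signalling subunit IL6ST (gp130) read 238, 281 and 214 and then 1029, 1004 and 1293, and LIFR, which completes the receptor for leukaemia inhibitory factor, 477, 509.7 and 533 and then 1592, 1835 and 2008. No groups overlapped, and the rises were 8.47-fold (adjusted p = 7.44e-08), 4.31-fold (6.11e-06) and 3.41-fold (2.19e-06). The oncostatin M subunit OSMR instead fell 1.78-fold (log2 difference -0.83 ± 0.15, adjusted p = 0.00309), and STAT3, which these receptors activate, fell 1.4-fold (0.00685). Of 40 cytokine receptor, JAK, STAT and SOCS genes 14 rose and 8 fell, 6 of the rises by at least 2-fold and none of the falls; 5 fell without untreated replicate 1 or under median centring.

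**Figure D3:**
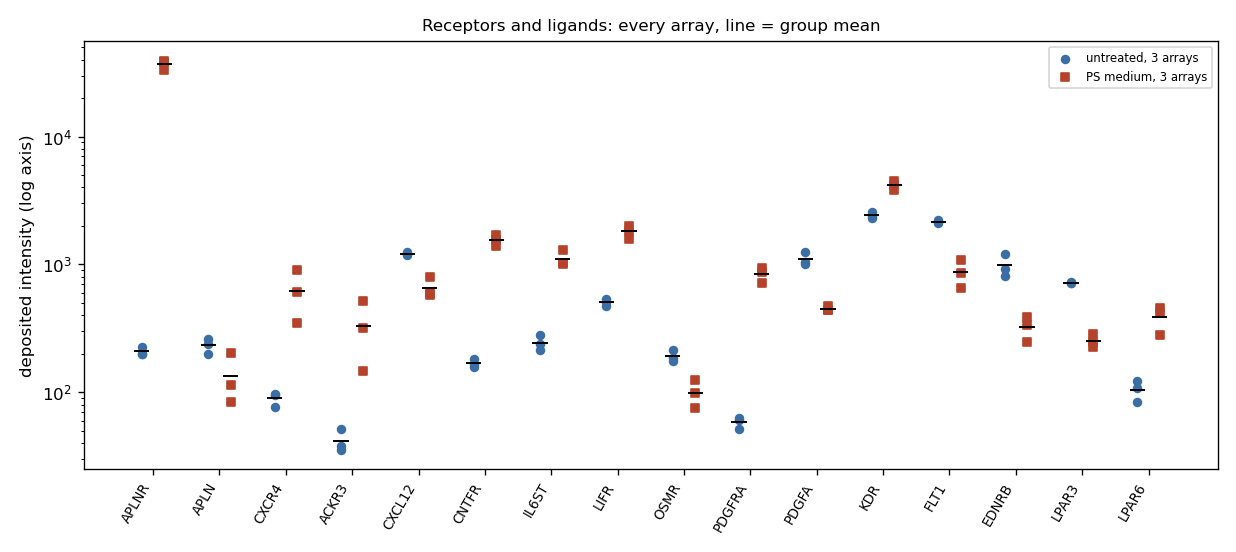
Deposited intensity (log axis) of receptor and ligand genes on each untreated and PS array, with a line at each group mean. CNTFR, IL6ST, LIFR and PDGFRA are higher on all PS arrays, and PDGFA, FLT1 and CXCL12 lower.

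Receptor tyrosine kinase genes changed in both directions. PDGFRA, a receptor for platelet-derived growth factor found on early mesoderm and endoderm, read 51.8, 60.8 and 62.6 and then 713, 865 and 929.6. Its ligand gene PDGFA read 1012, 1049.6 and 1245 and then 438, 471 and 443. The receptor rose 11.4-fold (log2 difference 3.51 ± 0.11, adjusted p = 1.45e-07) and the ligand fell 2.42-fold (log2 difference -1.27 ± 0.10, adjusted p = 1.90e-05), while PDGFRB had a difference of -0.12 ± 0.10 (adjusted p = 0.43). The vascular endothelial growth factor receptors moved apart: KDR rose 1.69-fold (5.64e-05) and the decoy receptor FLT1 fell 2.56-fold (0.000209). KIT and its ligand KITLG both rose, 1.79-fold (0.00275) and 2.48-fold (0.00201), as did the angiopoietins ANGPT1 (3.65-fold, 0.000334) and ANGPT2 (4.94-fold, 0.00242). Of these 25 genes 8 rose and 9 fell, and 5 fell without untreated replicate 1. In the family of epidermal growth factor (EGF), with 2 of 17 higher and 4 lower, EGF rose 4.07-fold (0.000339) and ERBB2 fell 2.07-fold (0.000206); 2 were lower without untreated replicate 1 or 2. The receptor inhibitors LRIG1 and LRIG3 went opposite ways, from 3144, 3133 and 3224 to 1085, 1222 and 1341 and from 449, 479 and 438 to 1562, 1591 and 2327.

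In the Notch pathway, in which cells signal to their neighbours, 7 of 30 genes rose and 10 fell. The ligand gene DLL3 rose 2.47-fold (log2 difference 1.30 ± 0.13, adjusted p = 0.000112) while JAG1 fell 1.49-fold (adjusted p = 0.000541) and the receptor NOTCH1 1.45-fold (0.00182). The target genes HES1 (1.71-fold, 0.000149) and HEY1 (2.45-fold, 0.000331) rose and HEYL fell 1.78-fold (0.000326). The Fringe sugar transferases, which tune the receptors, fell: LFNG 2.59-fold (4.56e-05) and MFNG 1.94-fold (0.000445). Among 29 Hippo genes, 8 rose and 9 fell, or 5 fell with any 1 untreated array left out. The YAP target ANKRD1, a cardiac ankyrin repeat protein, read 4.93, 24.9 and 20.2 and then 593, 788 and 570.2, or 20.9-fold (log2 difference 4.38 ± 0.24, adjusted p = 3.08e-06), while the YAP target CCN2 fell 1.84-fold (0.00625). In the same list the angiomotins divided, with AMOTL2 2.13-fold higher (2.34e-05) and AMOT 2.46-fold lower (1.98e-05).

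Of 17 hedgehog genes 4 rose and 4 fell, and GLI3, the transcription factor that represses targets without ligand, fell from 1173, 1170.1 and 1115 to 429, 468 and 420.2, or 2.6-fold (log2 difference -1.38 ± 0.08, adjusted p = 2.89e-06). The receptor PTCH1 rose 1.32-fold (adjusted p = 0.00219). In the insulin-like growth factor family of 17, IGFBP7 rose 3.04-fold (1.01e-05) and 4 fell, among them IGFBP5 (3.31-fold, 0.000244), a dim gene whose difference of -1.73 was -1.09 with an offset of 64. Retinoid genes (8 of 32 higher, 4 lower) included CYP26A1, which breaks down retinoic acid, at 381, 383 and 458 and then 5641, 6563 and 10689.9, a rise of 17.2-fold (log2 difference 4.10 ± 0.20, adjusted p = 1.78e-06). RDH10, which makes retinaldehyde, rose 2.28-fold (1.76e-05) and DHRS3, which reduces it back, fell 3.16-fold (3.86e-06).

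In the prostaglandin pathway, the 2 genes called at 2-fold or more were both higher and encode a transporter and an inactivating enzyme. The prostaglandin transporter SLCO2A1 read 130.4, 129 and 124 and then 1874, 2562 and 3576, and HPGD, which inactivates prostaglandins, 49.4, 69.6 and 94.9 and then 496, 481 and 782. All PS arrays exceeded all untreated arrays, with rises of 18.3-fold (log2 difference 4.19 ± 0.19, adjusted p = 1.21e-06) and 6.91-fold (log2 difference 2.79 ± 0.22, adjusted p = 2.30e-05). The receptor PTGER2 fell 1.85-fold (0.00449). Of 23 genes of the pathway 6 rose and 7 fell, but 1 fell without untreated replicate 1, and 3 without untreated replicate 2 or 3 or PS replicate 1; 3 rose without the dimmest 25% of genes. In cyclic nucleotide signalling, 7 of 32 genes rose and 4 fell; the cAMP phosphodiesterase PDE4D rose from 83.6, 98.6 and 92.2 to 441, 576 and 682 (5.37-fold, 5.02e-06) and PDE3A fell from 327, 361 and 321 to 103, 110.4 and 75.2 (3.11-fold, 2.21e-05). Of 21 regulators of G protein signalling 4 rose and 6 fell, led by RGS16, 3.49-fold (log2 difference 1.80 ± 0.10, adjusted p = 2.46e-06) higher.

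Guidance cues and their receptors steer growth cones and migrating cells. Of 30 semaphorin, plexin and neuropilin genes 9 rose, 6 of them at least 2-fold, and 5 fell, of which SEMA4D by at least 2-fold. PLXNA2, a semaphorin receptor, read 88.6, 81.2 and 70.9 and then 1622, 2257 and 2666, which was 22.6-fold (log2 difference 4.50 ± 0.17, adjusted p = 3.62e-07). The co-receptor NRP1 rose 4.94-fold (adjusted p = 5.52e-05) and NRP2 2.18-fold (0.00267). Among ligands, SEMA6D went from 210.5, 237 and 190.2 to 2260.5, 2464 and 3535 (12-fold, 1.13e-06) and SEMA3E rose 9.73-fold (9.19e-07), whereas SEMA3D fell 1.89-fold (0.00152) and SEMA4D 2.63-fold (4.67e-06; its other probe set had a log2 difference of -0.41, adjusted p = 0.0303).

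Of 21 Eph and ephrin genes 6 rose and 2 fell. EPHB3 rose 7.37-fold (log2 difference 2.88 ± 0.11, adjusted p = 5.40e-07) and EPHA4 3.85-fold (2.89e-06), the ligand EFNA5 2.09-fold (0.00013), and EPHA1 fell 1.58-fold (0.00234). Among 27 netrin, slit, RGM and FLRT genes with their receptors, 6 rose and 4 fell. NTN4, a laminin-binding netrin, read 452, 496 and 523 and then 3422, 3601 and 7971, 9.02-fold (log2 difference 3.17 ± 0.28, adjusted p = 4.77e-05) higher, with PS replicate 3 well above the other PS arrays. The adhesion proteins FLRT3 and FLRT2 rose 9.05-fold (5.78e-06) and 3.37-fold (9.57e-06). Their partner UNC5D, which binds FLRT proteins, fell from 2151, 2010.5 and 2017 to 755, 666 and 659.5, or 2.98-fold (log2 difference -1.58 ± 0.08, adjusted p = 2.04e-06), and RGMA fell 2.41-fold (2.05e-05).

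Matrix genes changed in both directions, with opposite changes among close relatives. HAS2, which makes the large sugar polymer hyaluronan, read 189, 247 and 185 and then 6446, 6035 and 7765. Its relative HAS3 read 575, 644 and 375 and then 160.4, 225 and 100.3. The groups overlapped for neither, and HAS2 rose 30.6-fold (log2 difference 4.94 ± 0.14, adjusted p = 6.23e-08) while HAS3 fell 3.11-fold (log2 difference -1.64 ± 0.27, adjusted p = 0.00181). CD44, a hyaluronan receptor, had a difference of 0.22 ± 0.13 (adjusted p = 0.231, or 0.0235 without PS replicate 1). In the list of 45 proteoglycan, hyaluronan and heparan sulfate genes 9 rose and 14 fell. The hyaluronan-binding NCAN rose 6.28-fold (6.93e-07), and of the glypicans GPC6 rose 1.64-fold (8.49e-05) and GPC3 fell 2.1-fold (3.30e-05).

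Of 43 collagen chains 12 rose and 9 fell. The chains of fibril-initiating collagen V rose together: COL5A1 read 199.6, 237 and 201 and then 1295, 1452 and 1879.7, and COL5A2 209, 232 and 185 and then 1479.7, 1478 and 2257. Both groups of arrays stayed apart, at 6.76-fold (log2 difference 2.76 ± 0.14, adjusted p = 1.72e-06) and 7.72-fold (log2 difference 2.95 ± 0.17, adjusted p = 3.68e-06). COL14A1, a fibril-associated chain, fell from 495, 491 and 483 to 87.3, 125 and 83.1, 4.43-fold (log2 difference -2.15 ± 0.14, adjusted p = 8.26e-06). Of 40 matrix glycoproteins 13 rose and 10 fell. MFAP4, a microfibril protein, read 103, 116 and 149 and then 6092, 6490.4 and 8883, 51.5-fold (log2 difference 5.69 ± 0.16, adjusted p = 6.40e-08) higher. Tenascin C (TNC) rose 14-fold (5.04e-08), fibrillin 2 (FBN2) 4.53-fold (5.28e-07) and fibronectin (FN1) 3.45-fold (1.05e-06), whereas THBS2, a thrombospondin that binds proteases, fell 5.54-fold (0.000197). Of 10 laminin chains 2 rose and 1 fell: LAMA5 fell 1.75-fold (7.35e-05) and LAMA1 and LAMB1 rose 1.28-fold and 1.28-fold, but LAMA1 lost its call without untreated replicate 2 or 3 and LAMB1 without untreated replicate 1 (adjusted p 0.0514 to 0.0597).

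**Figure D4:**
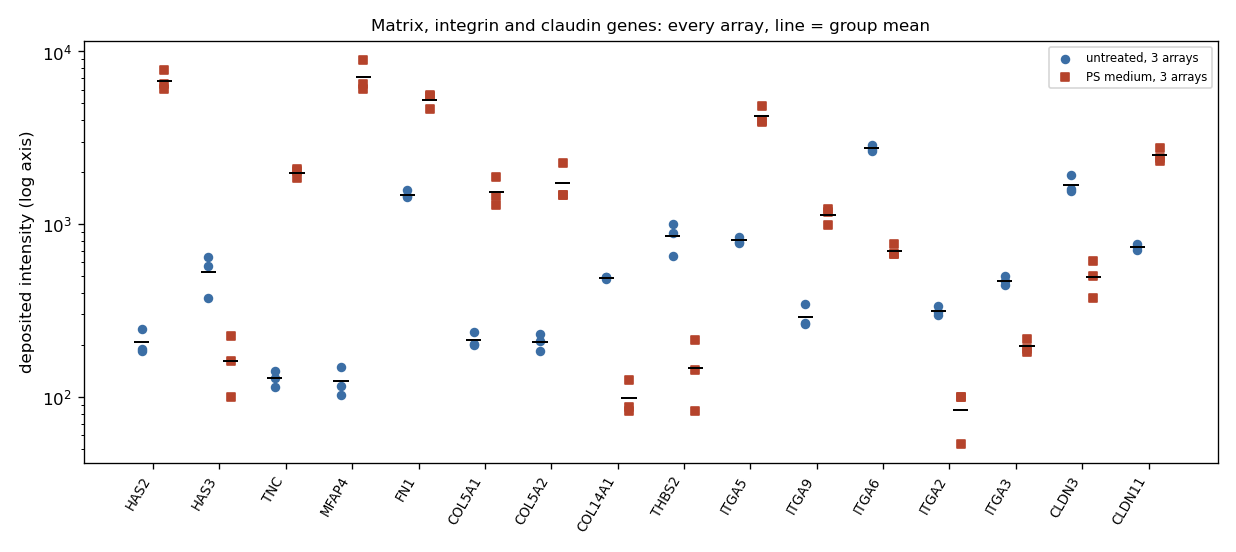
Deposited intensity (log axis) of matrix, integrin and claudin genes on each array, with a line at each group mean. HAS2, TNC, MFAP4, FN1 and ITGA5 are higher on all PS arrays, and HAS3, COL14A1, THBS2, ITGA6 and CLDN3 lower.

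Receptors for those matrix proteins changed in kind. ITGA5, the fibronectin receptor subunit, read 791, 844 and 778 and then 3901, 3964 and 4857, 5.09-fold (log2 difference 2.35 ± 0.09, adjusted p = 5.41e-07) higher. ITGA6, the laminin receptor subunit of epithelial cells, read 2877, 2642 and 2739.7 and then 667, 769.6 and 673, 3.91-fold (log2 difference -1.97 ± 0.08, adjusted p = 4.63e-07) lower. ITGA9, which binds tenascin, rose 3.77-fold (8.24e-06), while ITGA2 and ITGA3 fell 3.31-fold (0.000123) and 2.29-fold (3.05e-05). The common partner ITGB1 rose 1.26-fold (0.00141), and over 25 integrin genes 8 rose and 7 fell. Of 64 matrix protease and inhibitor genes 14 rose and 13 fell. ADAMTS9, which cuts proteoglycans, rose 8.92-fold (1.81e-07) and ADAM19 5.88-fold (2.51e-07). The gelatinase MMP2 and its membrane activator MMP14 rose 2.64-fold (2.41e-06) and 2.64-fold (3.98e-06), with the inhibitor TIMP3 (3.5-fold, 0.000248), while ADAMTS8 fell 4.66-fold (6.39e-06) and MMP16 3.63-fold (4.11e-06).

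Cell contacts changed unevenly. Of 30 tight junction genes 14 fell and 1 rose, with a median of -0.21. CLDN3, a sealing claudin, read 1561, 1597 and 1931 and then 498, 372 and 609.5, 3.46-fold (log2 difference -1.79 ± 0.16, adjusted p = 4.53e-05) lower. CLDN11 was the exception, at 736, 712 and 772 and then 2432, 2309 and 2776, 3.27-fold (log2 difference 1.71 ± 0.08, adjusted p = 1.63e-06) higher. The scaffold proteins TJP3 and CGN fell 2.1-fold (0.00327) and 1.96-fold (0.000229). Of 21 cadherins 10 rose, 6 of them at least 2-fold, and 4 fell. Without the dimmest 25% of genes 6 rose and 2 did so by at least 2-fold, and with an offset of 64 there were 3 rises of at least 2-fold. Besides CDH2 (2.69-fold, 2.93e-06), the dimmer CDH20 and CDH6 rose 3.42-fold (4.48e-05) and 3.13-fold (0.000139), and CDH3 fell 1.61-fold (2.36e-05). CDH1 fell 1.35-fold (0.00317), from 3733, 3864 and 3798 to 3228, 2809.7 and 2543.

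Among 42 protocadherins 7 rose and 13 fell. PCDH10, outside the gene clusters, read 169, 214 and 279.6 and then 4286, 3479.9 and 5587, 18.9-fold (log2 difference 4.24 ± 0.20, adjusted p = 1.48e-06) higher, while PCDH18 fell 2.7-fold (log2 difference -1.43 ± 0.08, adjusted p = 2.46e-06). Of the 31 clustered protocadherins 2 rose and 11 fell. The falls in the whole list numbered 6 without untreated replicate 1, 7 without untreated replicate 2 and 8 without PS replicate 1. Connexins (15 genes, 1 higher and 2 lower) had 20% called and keratins (48 genes, 3 higher and 2 lower) 10.4%, against 29.6% of all genes. GJC3 fell 2.64-fold (2.19e-05), KRT19 rose 2.25-fold (0.00105) and KRT7 fell 3.34-fold (1.01e-05).

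Of 70 glycosyltransferase genes, whose enzymes build the sugar chains of proteins and lipids, 20 rose and 19 fell. That was 55.7% called, against 29.6% of all genes, with 7 in each direction changed by at least 2-fold. ST8SIA4, which adds polysialic acid to the neural cell adhesion molecule, read 44.4, 48 and 43.9 and then 453, 671 and 1120.2, 11.7-fold (log2 difference 3.55 ± 0.26, adjusted p = 1.56e-05) higher. All 6 measured ST8SIA genes were called, 4 higher and 2 lower; ST8SIA1, which makes the ganglioside GD3, rose 2.96-fold (0.00312; its other, dimmer probe set had a log2 difference of 0.16, adjusted p = 0.194) and ST8SIA5 fell 2.76-fold (2.63e-05), with a difference of -0.93 at an offset of 64. ST6GALNAC2 rose 12.7-fold (log2 difference 3.67 ± 0.28, adjusted p = 2.00e-05), with PS arrays from 816 to 2082. B3GALT1 and B3GALT5, galactosyltransferases of which B3GALT5 takes part in making stage-specific embryonic antigens, fell 4.16-fold (0.000177) and 3.99-fold (1.01e-05).

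Metallothioneins are small cysteine-rich proteins that bind zinc and copper, and zinc drives their genes through the sensor MTF1, which binds metal response elements near the start site. All 8 measured MT1 and MT2A genes fell, each by at least 2-fold, with a median difference of -2.17. To show the start-site DNA of this family, the 250 bases before the start of the 4 members in the RefSeq promoter table (GRCh38.p14, chromosome 16, plus strand) are printed, with capitals at matches to the element core, TGCACNC or TGCGCNC, on either strand. MT1E, MT1F, MT1G and MT1M were not matched.
MT1B (chr16:56651636-56651885): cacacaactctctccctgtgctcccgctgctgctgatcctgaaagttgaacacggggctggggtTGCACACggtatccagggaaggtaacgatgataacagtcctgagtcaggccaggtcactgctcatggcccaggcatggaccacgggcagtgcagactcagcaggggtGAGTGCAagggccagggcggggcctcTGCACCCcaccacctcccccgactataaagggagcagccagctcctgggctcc
MT1H (chr16:56669564-56669813): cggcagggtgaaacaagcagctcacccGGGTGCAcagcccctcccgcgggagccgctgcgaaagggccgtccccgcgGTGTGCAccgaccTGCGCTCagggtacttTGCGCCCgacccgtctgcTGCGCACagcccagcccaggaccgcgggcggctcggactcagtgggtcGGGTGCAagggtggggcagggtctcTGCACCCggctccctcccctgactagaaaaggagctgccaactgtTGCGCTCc
MT1X (chr16:56682220-56682469): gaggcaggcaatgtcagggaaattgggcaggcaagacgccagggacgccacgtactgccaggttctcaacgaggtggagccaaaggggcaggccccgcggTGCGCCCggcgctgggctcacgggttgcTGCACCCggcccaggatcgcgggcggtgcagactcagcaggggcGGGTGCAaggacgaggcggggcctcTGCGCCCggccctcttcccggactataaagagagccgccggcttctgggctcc
MT2A (chr16:56608334-56608583): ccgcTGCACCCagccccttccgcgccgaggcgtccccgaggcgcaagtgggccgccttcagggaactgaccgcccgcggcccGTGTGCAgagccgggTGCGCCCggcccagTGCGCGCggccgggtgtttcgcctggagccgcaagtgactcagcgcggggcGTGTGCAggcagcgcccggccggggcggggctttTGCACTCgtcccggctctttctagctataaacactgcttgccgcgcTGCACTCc
The 4 promoters held 3, 8, 4 and 7 matches. Of 14239 such promoters of tested genes, 29.7% held at least 1 match, 8.41% at least 2 and 0.428% at least 4. The promoter of the zinc exporter SLC30A1, read the same way on chromosome 1, held 1. A match describes letters and is no evidence of binding in these cells.

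MT1H, with the largest fall of the 8 genes, read 6174, 4483 and 7272 in untreated cells and 1041, 407 and 637 in PS medium. MT2A, the brightest member, read 9195, 7523 and 10268 and then 3879.9, 1725 and 2577. Each gene's groups stayed apart, at 8.97-fold (log2 difference -3.16 ± 0.30, adjusted p = 6.90e-05) for MT1H and 3.49-fold (log2 difference -1.80 ± 0.25, adjusted p = 0.000669) for MT2A. For all 8 genes replicate 2 was the lowest array in both groups, and PS replicate 1 the highest PS array. Near-identical copies can share probe sequence, so the 8 are not independent measurements. The median lay between -1.9 and -2.4 with any 1 array left out, and all 8 stayed called. The brain member MT3 had a difference of 0.12 ± 0.09 (adjusted p = 0.353), and MTF1 itself, at 608, 633 and 596 and then 581, 653 and 598, one of -0.03 ± 0.08 (0.806).

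**Figure D5:**
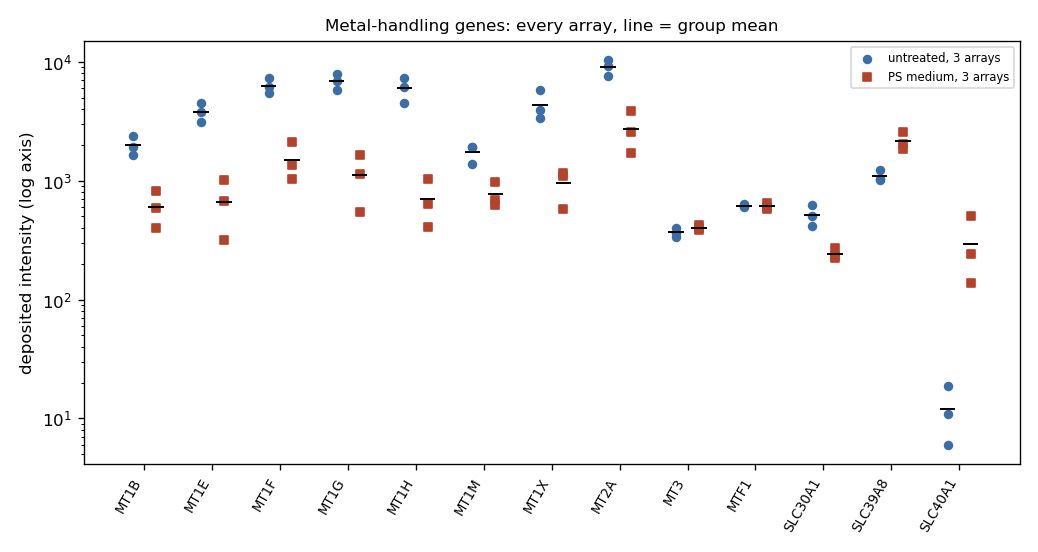
Deposited intensity (log axis) of metal-handling genes on each array, with a line at each group mean. The 8 MT1 and MT2A genes and SLC30A1 are lower on all PS arrays, MT3 and MTF1 overlap between groups, and SLC39A8 and SLC40A1 are higher.

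Zinc transporters changed in both directions. SLC30A1, the plasma membrane exporter that MTF1 also drives, read 502, 418 and 628 and then 234, 223 and 272, 2.03-fold (log2 difference -1.02 ± 0.14, adjusted p = 0.000716) lower, and SLC30A3, which loads vesicles, fell 2.25-fold (2.63e-05). The importer SLC39A8 rose 1.92-fold (log2 difference 0.94 ± 0.12, adjusted p = 0.00052). It was the only riser among 14 SLC39A importers, of which 4 fell. Among 10 SLC30A exporters 1 rose and 4 fell. With the metallothioneins the list held 35 genes, 2 higher and 17 lower, 10 of the falls at least 2-fold. In iron and haem handling (29 genes, 6 higher and 9 lower), the iron exporter SLC40A1 read 5.95, 10.9 and 18.9 and then 139, 243 and 501, 10-fold (log2 difference 3.33 ± 0.37, adjusted p = 0.000191) higher, or 2.11 on the log2 scale with an offset of 64. The ferritin cargo receptor NCOA4 rose 1.68-fold (9.09e-05) and haem oxygenase HMOX1 fell 1.83-fold (0.000197). Lower calls in the iron list numbered 5 without untreated replicate 1 or PS replicate 1 and 4 without untreated replicate 2 or 3, and higher calls 3 without untreated replicate 1.

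Several metabolic families had more falls than rises, most of them under 2-fold. Fatty acid and glycerolipid synthesis had 16 of 37 genes lower and 4 higher, with a median of -0.23. ACACA, the first committed enzyme, fell 1.48-fold (0.00136) and the desaturase SCD 1.39-fold (0.001). The elongases went opposite ways: ELOVL7 read 576, 536 and 724 and then 177, 134 and 173, 3.53-fold (log2 difference -1.82 ± 0.13, adjusted p = 1.63e-05) lower, and ELOVL2, which extends polyunsaturated chains, 162, 179 and 195 and then 721, 947 and 863, 4.41-fold (log2 difference 2.14 ± 0.11, adjusted p = 2.12e-06) higher. Of 22 apolipoprotein and lipoprotein receptor genes 3 rose and 7 fell (4 without the dimmest 25% of genes), and the lipase LPL fell 2.62-fold (0.000118).

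Serine, glycine and one-carbon enzymes had 13 of 28 lower and 3 higher, with a median of -0.19. The mitochondrial enzymes ALDH1L2 and GLDC fell 2.09-fold (9.23e-05) and 2-fold (0.000392), whereas the bright synthesis enzymes PHGDH and PSAT1 had differences of -0.16 ± 0.07 (0.126, or 0.00647 without PS replicate 3) and -0.05 ± 0.06 (0.553). Of 58 amino acid transporter genes 7 rose (4 without untreated replicate 1) and 15 fell. SLC38A4 read 791, 842 and 764 and then 163, 189.9 and 118, 4.76-fold (log2 difference -2.25 ± 0.14, adjusted p = 7.36e-06) lower, and the cystine importer SLC7A11 fell 1.93-fold (0.000231). SLC7A14, a lysosomal relative, rose 4.31-fold (1.71e-05), but its other, dimmer probe set had a log2 difference of 0.34 (adjusted p = 0.116). Glucose and monocarboxylate transporters (34 genes) had 1 rise and 8 falls, 5 without untreated replicate 2, led by SLC16A14 (3.19-fold lower, 3.45e-05), while the glucose importers SLC2A1 and SLC2A3 had differences of 0.20 ± 0.13 (0.3) and 0.09 ± 0.07 (0.37), or adjusted p of 0.0133 and 0.0372 without PS replicate 2.

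At the entry of pyruvate into the TCA cycle, the inhibitory kinases PDK4 and PDK1 rose 2.84-fold (adjusted p = 0.000368) and 1.85-fold (0.000527). In the same list of 31 genes, 7 higher and 4 lower, SUCLG1 rose 2.12-fold (1.61e-05). Of 49 glutathione and peroxidase genes 9 rose (5 without untreated replicate 1 or 2) and 10 fell; MGST2 and GSTO1 rose 4.5-fold (0.000336) and 3.82-fold (1.53e-05). Purine and pyrimidine synthesis had 3 higher and 8 lower of 31, with 5 and 4 falls without untreated replicate 1 and 2. Transfer RNA synthetases had 2 higher and 7 lower of 35, with 4 falls without untreated replicate 1, and WARS1 was 1.42-fold higher (0.000458). Of 43 ABC transporters 6 rose and 5 fell, or 3 fell without untreated replicate 1 or 2 or PS replicate 1 or 2. The potassium channel regulator ABCC9 read 25.7, 31 and 34.7 and then 356, 351 and 383, 8.26-fold (log2 difference 3.05 ± 0.10, adjusted p = 1.45e-07) higher, and the drug pump ABCG2 rose 5.83-fold (5.85e-06).

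Among genes of excitable cells, those of synapses, transmitter receptors and potassium, sodium and calcium channels were called lower more often than higher. TRP channels and aquaporins went the other way. Of 55 synaptic vesicle and adhesion genes 26 fell and 4 rose, with a median of -0.23. The adhesion protein NLGN1 read 456, 534 and 609 and then 125, 96 and 89.9, 4.57-fold (log2 difference -2.19 ± 0.13, adjusted p = 4.95e-06) lower. Of 17 synaptotagmins, calcium sensors of vesicle release, 11 fell and 1 rose: SYT9 and SYT2 fell 3.69-fold (3.55e-05) and 3.26-fold (8.26e-06), and SYT4 rose from 219, 204 and 210.1 to 1253, 1006 and 739 (4.36-fold, 2.70e-05). The postsynaptic LRRTM1 and the synapse organizer CBLN1 rose 12.5-fold (1.07e-05) and 7.27-fold (1.05e-06). Of the 3 neural markers MAP2, a neuronal microtubule protein, fell 4.73-fold (log2 difference -2.24 ± 0.11, adjusted p = 1.48e-06), and SOX1 and PAX6 were not called (0.601 and 0.116).

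Of 62 transmitter receptor genes 7 rose and 18 fell. Of 7 NMDA receptor subunits 1 rose and 3 fell, with a median of -0.106. The falls were in GRIN2D, GRIN2A and GRIN2B, at 3.12-fold (3.26e-06), 2.51-fold (0.000276) and 2.04-fold (0.000149), and GRIN2B had a difference of -0.64 with an offset of 64. GABRB2, a subunit of the GABA receptor channel, read 32.9, 47.3 and 57.6 and then 1298, 1061 and 974, 18.3-fold (log2 difference 4.19 ± 0.17, adjusted p = 5.28e-07) higher. Of 85 potassium channel genes 9 rose and 21 fell (12 without the dimmest 25% of genes). KCNV1, a subunit silent by itself, read 122, 104 and 122 and then 3669, 3229.6 and 4449, 28.8-fold (log2 difference 4.85 ± 0.12, adjusted p = 4.21e-08) higher. KCNH2, the cardiac repolarizing channel, fell from 770.3, 767 and 811 to 229, 250.3 and 293 (2.95-fold, 6.84e-06) and KCND2 3.52-fold (0.000434).

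Of 41 sodium and calcium channel genes 7 rose (4 without untreated replicate 1) and 11 fell; the T-type calcium channel CACNA1G rose 2.84-fold (3.18e-05). TRP channels and aquaporins (35 genes) had 7 rises, 3 without the dimmest 25% of genes, and 3 falls. TRPA1, an irritant-sensing channel, read 23.5, 33.1 and 28.2 and then 694, 842 and 1587, 22.5-fold (log2 difference 4.49 ± 0.26, adjusted p = 3.94e-06) higher, and the osmosensor TRPV4 rose 2.34-fold (0.000157).

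Among chromatin genes, the repressor PRDM1 of mesendoderm and germ cells read 41.4, 40.4 and 38.7 and then 1433, 1384 and 2072, 28.8-fold (log2 difference 4.85 ± 0.14, adjusted p = 8.90e-08) higher. Its relative PRDM14, a regulator of pluripotent cells, fell from 978, 1267 and 1095 to 533, 617 and 462, 2.07-fold (log2 difference -1.05 ± 0.13, adjusted p = 0.000288). The histone methyltransferase SETD7 and the demethylases KDM6B and KDM7A rose 2.47-fold (0.0001), 2.19-fold (6.13e-05) and 2-fold (0.000127). Of 63 genes in the list 9 rose and 9 fell, 5 without untreated replicate 1. DNA methylation enzymes had 7 of 18 higher and 1 lower: DNMT3B fell 1.58-fold (0.0014), and the demethylase TET2 and the stress gene GADD45A rose 2.11-fold (0.000396) and 2.16-fold (1.07e-05).

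Histone genes, 67 in all, had 24 rises and 1 fall with a median of 0.185. The variant MACROH2A2 read 1099, 1219 and 1117 and then 3246, 3534 and 3970.1, 3.05-fold (log2 difference 1.61 ± 0.08, adjusted p = 2.37e-06) higher, the sole rise of at least 2-fold. The clustered genes, 57 in all, gave 23 rises that were small, with a median of 0.198, and the linker histone H1-1 fell 2.15-fold (0.00473). The rises among the 67 numbered 14 without untreated replicate 1 and 15 without PS replicate 1. Clustered histone messages lack poly(A) tails and many copies are alike in sequence, so single genes are uncertain.

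More RNA-binding regulators fell than rose, 16 of 35 against 3, with a median of -0.12 and 4 of the falls at least 2-fold. RBM24, a splicing factor of heart and muscle, read 88, 99 and 117 and then 837, 692 and 1121, 7.62-fold (log2 difference 2.93 ± 0.16, adjusted p = 3.48e-06) higher, and MBNL3 rose 3.73-fold (3.26e-06). The epithelial splicing factor ESRP2 fell 1.76-fold (8.44e-05) and the neural-type regulators CELF5 and ELAVL2 2.43-fold (1.14e-05) and 2.34-fold (0.000162). LIN28A fell 1.22-fold (0.00158), from 7865, 8322 and 8108 to 6532, 7031 and 6720.3.

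Of 38 nuclear receptors 8 rose (5 without the dimmest 25% of genes) and 7 fell (3 without untreated replicate 1, 4 without untreated replicate 2). NR5A2, a regulator of pluripotency and liver genes, read 304, 454 and 276 and then 73.1, 102 and 45.7, 3.99-fold (log2 difference -2.00 ± 0.25, adjusted p = 0.000351) lower. The thyroid hormone receptor THRB rose 3.43-fold (2.31e-05). Of 40 forkhead factors 9 rose (4 and 5 without untreated replicate 1 and 2) and 10 fell (5 under median centring or without any 1 untreated array); FOXD3 fell 5.78-fold (1.36e-06) and FOXA2 rose 3.36-fold (0.00843). Of the 480 ZNF genes 22.5% were called, against 29.6% of all genes, with 63 higher (40 without untreated replicate 1) and 45 lower, among them ZNF521 (3.18-fold higher, 3.48e-05) and ZNF483 (4.39-fold lower, 6.83e-06).

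Families of the cell cycle, ribosomes and proteasome had few changes of 2-fold or more. Cyclins, CDKs and inhibitors had 9 of 36 higher and 4 lower, or 2 lower under median centring or without untreated replicate 1, untreated replicate 2 or PS replicate 1; CCNG2, which slows the cell cycle, rose 2.89-fold (9.05e-06) and CCND1 1.6-fold (0.000529). Replication factors had 3 of 42 higher and 11 lower, none by 2-fold, and the falls numbered 4 under median centring, 3 without untreated replicate 1, 6 without untreated replicate 2 and 7 without PS replicate 1. Of 64 cytosolic ribosomal proteins 2 rose and 5 fell. Of 73 mitochondrial ribosomal proteins 5 rose and 8 fell, with 5 falls without untreated replicate 1 or 2 and 4 under median centring, where 9 rose. Proteasome subunits had 3 of 45 higher and 3 lower, with 6 and 7 higher for values as deposited and under median centring. Heat shock and DNAJ genes had 8 of 68 higher and 10 lower, or 3 and 5 without untreated replicate 1, 5 higher without PS replicate 2 and 5 lower without untreated replicate 3; HSPA2 fell 1.91-fold (0.000214).

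Of 54 actin, myosin and troponin genes 13 rose and 7 fell. The atrial myosin light chains MYL4 and MYL7 rose from 41.4, 34.4 and 34.5 to 92, 187 and 332 (3.79-fold, 0.00283) and from 50.7, 78.1 and 75.8 to 137, 241 and 226 (2.59-fold, 0.00161). Of 21 tubulins 7 rose and 3 fell: TUBB4A, a neuronal beta tubulin, read 1228, 1136 and 1337 and then 236, 249.9 and 212, 5.04-fold (log2 difference -2.33 ± 0.10, adjusted p = 7.15e-07) lower, while the rises were all under 2-fold. Annexins and S100 genes had 5 of 30 higher and 2 lower, with ANXA6 1.98-fold higher (0.000192). Lysosomal genes had 6 of 35 higher (3 without untreated replicate 1) and 8 lower; SMPD1, the acid sphingomyelinase, rose 3.64-fold (1.75e-05) and the acid lipase LIPA fell 2.05-fold (3.36e-05).

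Genes of antigen presentation on MHC class I were lower more often than higher. Of 14 measured genes 8 fell and 1, the shared light chain, rose, with a median of -0.36. The peptide transporter TAP1 read 549, 591 and 623 and then 271, 268 and 214, 2.27-fold (log2 difference -1.18 ± 0.11, adjusted p = 5.92e-05) lower; TAPBP and ERAP1, which load and trim peptides, fell 1.67-fold (0.000216) and 1.67-fold (0.00034). B2M, the light chain, read 427, 407 and 575 and then 1103, 806 and 1068, 2.05-fold (log2 difference 1.04 ± 0.16, adjusted p = 0.00122) higher. The list and the proteasome list share PSMB8 and PSMB9, interferon-induced subunits that fell 1.77-fold (0.00165) and 1.32-fold (0.00813).

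Of 31 serpins 3 rose and 3 fell. SERPINB9, which inhibits granzyme B, read 909, 1308 and 1286 and then 9599, 8696 and 10165, and SERPINE2, an inhibitor of thrombin and plasminogen activators, 1356, 1526 and 1351 and then 9419, 7390.3 and 10643. These bright genes rose 7.91-fold (log2 difference 2.98 ± 0.13, adjusted p = 6.93e-07) and 6.2-fold (log2 difference 2.63 ± 0.12, adjusted p = 1.05e-06). In the complement and coagulation list (48 genes, 7 higher and 8 lower), tissue factor F3 and the anticoagulant PROS1 rose 2.59-fold (6.33e-05) and 3.48-fold (0.000108), and clusterin (CLU), complement C1R and the plasminogen activator PLAT fell 2.7-fold (3.05e-05), 2.41-fold (4.36e-05) and 2.38-fold (0.00147).

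Small nucleolar RNA genes had 1 of 192 higher and 34 lower, or 18.2% called against 29.6% of all genes. Of the 20 measured copies of SNORD116, encoded in the imprinted chromosome 15 cluster, 15 fell and 19 lay below 0, with a median of -0.4. Of the 20 measured copies of the neighbouring SNORD115, 1 fell and 5 lay below 0, with a median of 0.046. The other 152 small nucleolar RNA genes had 1 higher and 18 lower, with 126 below 0 and a median of -0.169. The lower calls for SNORD116 numbered 6 without untreated replicate 1, 10 without untreated replicate 3 or PS replicate 2, and those for all small nucleolar RNAs 12 and 21 without untreated replicate 1 and 2. Copies within each cluster are near identical and cannot be counted as separate measurements.

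Of 173 microRNA genes 6.36% were called (6 higher and 5 lower), against 29.6% of all genes, at a median untreated intensity of 54.3. Their probe sets cover the hairpin and its surroundings, so mature microRNA was not measured. The mature forms of 3 of the called genes are printed from RefSeq (GRCh38.p14), with capitals at the seed, bases 2 to 8. Other members of their families are not described here.
hsa-miR-302a-3p (chr4:112648186-112648208, minus strand): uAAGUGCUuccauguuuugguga
hsa-miR-302b-3p (chr4:112648489-112648511, minus strand): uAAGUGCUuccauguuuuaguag
hsa-let-7i-5p (chr12:62603691-62603712, plus strand): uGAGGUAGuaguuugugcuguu
The pluripotency-associated microRNAs 302a and 302b share a seed, and the let-7 family, which LIN28A restrains, has another. MIR302B read 1535, 1820.5 and 1117 and then 1064, 867 and 658, 1.75-fold (log2 difference -0.81 ± 0.20, adjusted p = 0.0159) lower, and MIR302A 735, 939.6 and 591 and then 535, 449 and 395, 1.63-fold (log2 difference -0.70 ± 0.17, adjusted p = 0.0127) lower. Without untreated replicate 1 their adjusted p values were 0.0695 and 0.0502, and MIR302B had 0.0597 without untreated replicate 2. MIRLET7I read 208, 236 and 195 and then 400.4, 326 and 374, 1.7-fold (log2 difference 0.77 ± 0.11, adjusted p = 0.000793) higher, and stayed called with any 1 array left out. The lower calls in the list ranged from 1 without untreated replicate 1 to 8 without untreated replicate 3, and 2 were higher and 3 lower without the dimmest 25% of genes.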

How the data were processed

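Gene expression of H9-TCF7L1 cells was read on Affymetrix whole-transcript arrays. The deposited values are linear intensity per probe set, which per the submitters' processing notes came from Affymetrix Expression Console 1.1.1 with PLIER 2.0; for background correction and normalization the sources used here give no method. Of 33297 probe sets in the annotation supplied, 19460 had 1 gene symbol, 1754 several and 12083 none listed. Of those with 1 symbol 19429 were matched to current names (GRCh38.p14) and 31 kept the annotation name. The brightest probe set (mean of 6 arrays) stood for each of 18417 genes, 769 of which had more than 1. Log2(intensity + 16) values were quantile-normalized and fitted with limma 3.58.1 (R 4.3.3; eBayes with trend, 4 residual degrees of freedom), with Benjamini-Hochberg adjustment at 0.05. Figures used matplotlib 3.10.9 under Python 3.11.15. In simulated data over 18417 genes the procedure recovered 88% of 100 genes changed 2-fold and 100% of 100 changed 4-fold, with 11 false calls. The changed genes were drawn from those above the median intensity, without the very brightest, and noise was independent between genes. Recovery of dim genes was thus not tested. Far fewer genes were changed than were called in the data, so the false calls give no rate for the calls reported here.

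Families came from 67 gene lists covering 3262 genes, chosen with earlier results of these data known, with some symbol patterns corrected after the data were seen. Lists overlap. The rule for named genes took TCF7L1, the 15 largest rises and falls with a standard symbol and up to 5 of each per list, all called without overlapping arrays, plus any member of a list of up to 12 and partners of a named gene in its list. Cell markers were also named, and MT2A, ACACA, SCD, PHGDH, PSAT1, SLC2A1, SLC2A3, SLC30A1, SLC30A3, LIN28A and others outside these limits were chosen after their values were seen. Precision is limited by 3 arrays per group. POU5F1 and NANOG are not analysed here. Alternatives changed the normalization, offset, gene filter, probe sets, arrays, trend and replicate block, 1 at a time.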

Additional observations from a re-analysis of the deposited data

How the results depend on the processing

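Under every setting run, the numbers called higher and lower stayed within 1.5 times those reported (2583 and 2863). They were 2615 and 2751 for values as deposited, 2853 and 2313 under median centring, 2584 and 2856 with an offset of 1, 2579 and 2860 with 64, 2399 and 2659 without the dimmest 25% of genes, 2608 and 2886 with all 9 arrays fitted, and 2482 and 2735 without the trend. Leaving out 1 array at a time gave 1734 to 2510 higher and 2101 to 2967 lower genes, fewest without untreated replicate 1. Higher genes made up 47.43% of the calls as reported. The labels do not state that replicate numbers pair the samples, and no pairing was assumed. Deviations of same-numbered arrays correlated at 0.085, 0.397 and 0.271, all above those of differently numbered arrays (-0.379 to 0.0487). Whether same-numbered arrays shared a batch was not tested. With the number as a replicate block 3115 genes were higher and 3575 lower, and 65 small nucleolar RNA genes fell in place of 34. Of 616 named genes, each in limma with Benjamini-Hochberg adjustment, 82, 58 and 42 lost their call without untreated replicate 1, 2 and 3. The losses numbered 34, 22 and 16 without PS replicate 1, 2 and 3, and at most 15 under any other setting. Without the dimmest 25% of genes, 542 of the 616 were fitted and kept their result, and the rest could not be assessed. In all, 5 calls were gained. MTF1, not called, was the only named gene to change sign (0.0303 under median centring, adjusted p = 0.861). List medians stayed within their spread except for 6 cases. Without the dimmest 25%, cadherins moved to 0.351, metallothioneins and zinc transporters to -0.358 and splicing regulators to -0.223. Tubulins moved to 0.16 without PS replicate 1, cytosolic ribosomal proteins to 0.0121 under median centring, and MHC class I genes to -0.59 with all probe sets. Counts of 5 or fewer in a list often moved by more than 1.5 times when 1 array was left out. Dim genes depend on the offset, and the brightest, EOMES and APLNR, on the normalization, since quantiles gave each 1 value on all PS arrays: as deposited their differences were 7.9 and 7.36, against 7.11 and 6.84.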

Other observations

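TXNIP, a thioredoxin inhibitor induced by glucose that was chosen after its values were seen, read 1360, 1240 and 2488 on the untreated arrays and 1681, 1317 and 147 in PS medium. PS replicate 3 was the lowest of the 6 arrays for it, and the difference of -1.19 had an adjusted p of 0.288, or -0.14 and 0.745 without that array. On the second principal component of the 6 arrays, which held 7.19% of the variance, PS replicate 3 lay at -19.2 and PS replicates 1 and 2 at 6.83 and 14.99. For FOXA2 (282, 409 and 1094), ST8SIA1 (521, 797 and 1450.1), CXCR4 (346, 608 and 902) and NTN4 (3422, 3601 and 7971) the intensity in PS medium, given for replicates 1, 2 and 3, was highest on PS replicate 3; these 4 genes were also chosen after their values were seen.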
